A study of Mus musculus with 48 samples.

Results

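Usp11 and its paralogs Usp4 and Usp15 are 3 of the 24444 genes in the deposited expression table of mouse cerebral cortex. Usp11 was chosen by its measured expression, which was lower in Chd8 V986*/+ mice than in WT mice at 1, 6 and 12 months, and Usp4 and Usp15 were added to it as its closest relatives. The Usp11 genotype differences at these 3 postnatal ages are therefore given as a description, without a test. Usp11 at E14.5, and Usp4 and Usp15 at every age, were tested.

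The study profiled cortical RNA of male mice at embryonic day 14.5 (E14.5), 1 month, 6 months and 12 months of age. Each age had 6 WT mice and 6 mice carrying one Chd8 V986* allele, 48 mice in all, on a C57BL/6J background with littermate controls. The allele was made with CRISPR/Cas9, carries tandem stop codons at V986 and E987 of the chromatin remodeler CHD8, and descends from one male founder that was backcrossed to C57BL/6J. Polyadenylated RNA was taken from the cortex of one hemisphere, so each sample is a mixture of cell types, and fewer cells of a type cannot be told apart from less RNA per cell.

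USP11, USP4 and USP15 are ubiquitin-specific proteases, enzymes that remove ubiquitin from other proteins and thereby alter their stability, location or partners. The paralogs share an N-terminal DUSP domain, a ubiquitin-like domain and a catalytic core built around a cysteine. They are known for acting on receptors and SMAD proteins of the TGF-beta pathway. USP11 is also known for acting on DNA repair proteins, on the cell cycle inhibitor p21 and on tau. USP4 and USP15 both bind the splicing factor SART3.

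In the mm9 reference, Usp11 (ENSMUSG00000031066.4) lies at chrX:20281032-20297665 on the plus strand, Usp4 (ENSMUSG00000032612.8) at chr9:108250162-108294860 on the plus strand and Usp15 (ENSMUSG00000020124.8) at chr10:122550286-122634017 on the minus strand. The coding sequence around the catalytic cysteine codon is shown because it is the catalytic centre that the paralogs share, and the bases by which they differ there can be read directly. The capitals mark the cysteine codon, and 33 coding bases stand on each side, read 5′ to 3′ along the coding strand.
Usp11: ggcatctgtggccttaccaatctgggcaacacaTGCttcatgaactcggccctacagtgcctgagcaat
Usp4: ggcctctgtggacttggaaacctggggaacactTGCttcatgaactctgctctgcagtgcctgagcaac
Usp15: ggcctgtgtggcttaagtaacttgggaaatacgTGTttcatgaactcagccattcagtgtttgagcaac
The stretches are exonic and each crosses 1 exon junction, from exon 7 to 8 of 21 in Usp11, and from exon 8 to 9 of 22 in both Usp4 and Usp15. The capital codons lie at chrX:20290499-20290501, chr9:108269186-108269188 and chr10:122583871-122583873. They encode residue 266 of 921 in USP11, residue 311 of 962 in USP4 and residue 298 of 981 in USP15. Usp11 and Usp4 matched at 57 of the 69 printed bases, Usp4 and Usp15 at 52, and Usp11 and Usp15 at 51.

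Over the whole proteins, 50.8% of aligned residues were identical between USP11 and USP4, 50.3% between USP11 and USP15, and 60.6% between USP4 and USP15. The longest run of bases that 2 members had in common was 25, between Usp4 and Usp15, against 20 between Usp11 and Usp4 and 14 between Usp11 and Usp15. No run of 50 bases in the transcripts of any member occurred in a transcript of another protein-coding gene. A stretch of 50 matching bases thus belongs to 1 member among the annotated protein-coding transcripts.

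The values are variance-stabilizing transformation (VST) expression values on a log2 scale, so a difference of 1 is close to a doubling for genes as strongly expressed as these. All differences below are Chd8 V986*/+ minus WT on this scale unless another direction is given. The table is not scaled by gene length, so levels are compared between mice and ages for one gene, and not between genes. The number of reads behind a gene's value is unknown from the deposited values, and the spread between 6 mice is the measure of precision. A gene was counted as called when limma gave an adjusted p value (adjp) below 0.1 over all genes tested at that age. Where the number of mutants below or above all WT mice is given, the share of all genes with such a number was not counted. These numbers are therefore a description.

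The labels were checked on Chd8 itself (chr14:52817826-52857466, minus strand). Its VST expression in WT mice ran from 12.33 to 12.66 in E14.5 embryos, then from 11.55 to 11.87, 11.72 to 11.78 and 11.36 to 11.80 as age increased. In Chd8 V986*/+ mice it ran from 11.60 to 12.03, 10.94 to 11.11, 10.97 to 11.17 and 11.09 to 11.17. All 6 mutant mice lay below all 6 WT mice at each age, with mutant means at 64.6%, 62.7%, 64.2% and 68.8% of WT. The mean of 11 markers of midbrain, hindbrain and spinal cord spread from 3.21 to 7.48 over the E14.5 WT samples. Over the E14.5 mutants it spread from 3.38 to 5.06. It was 2.79 to 3.27 postnatally, near 2.1433, the most frequent value of the table, which is called its floor here.

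Usp11 expression was lower in Chd8 V986*/+ mice than in WT mice at every age, by 11.3% at E14.5 and by 19.2% to 24.3% postnatally. At 1 month, the 6 WT values ranged from 11.64 to 11.78 with a median of 11.67, and the 6 mutant values from 11.16 to 11.38 with a median of 11.30. The highest mutant lay 0.26 below the lowest WT mouse. The log2 difference of the means was −0.40 (SE 0.04), a mutant level of 75.7% of WT.

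At 6 months, Usp11 ranged from 11.67 to 11.92 in WT (median 11.79) and from 11.35 to 11.55 in mutants (median 11.50). The difference was −0.31 (SE 0.05), or 80.8% of WT. At 12 months, Usp11 ranged from 11.66 to 11.84 in WT (median 11.81) and from 11.35 to 11.55 in mutants (median 11.46). The difference was −0.34 (SE 0.04), or 79.3% of WT. The genotypes did not overlap at either age, with gaps of 0.12 and 0.11 between the nearest mice. The lower postnatal values are those by which Usp11 was chosen. Of all genes tested, 0.139% were called at 1 month (24 of 17221), 0.0927% at 6 months (16 of 17256) and 0.0463% at 12 months (8 of 17288). The mean of 6 pan-neuronal markers differed between genotypes by −0.01 at 1 month, −0.01 at 6 months and 0.01 at 12 months. With that mean as a covariate the Usp11 differences were −0.40, −0.31 and −0.34. A covariate that differs so little between genotypes can hardly move the Usp11 values, so this fit cannot tell the part of neurons. The mean of 6 progenitor markers differed by 0.48 at 12 months, and that of 5 oligodendrocyte markers by −0.20 at 6 months. The mean of 4 choroid plexus markers differed by 0.72, −0.68 and −0.31 from 1 to 12 months, and that of 4 endothelial markers by −0.20, 0.15 and −0.15. The part of neurons and of these other cell types in the Usp11 values was not tested.

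**Figure D1:**
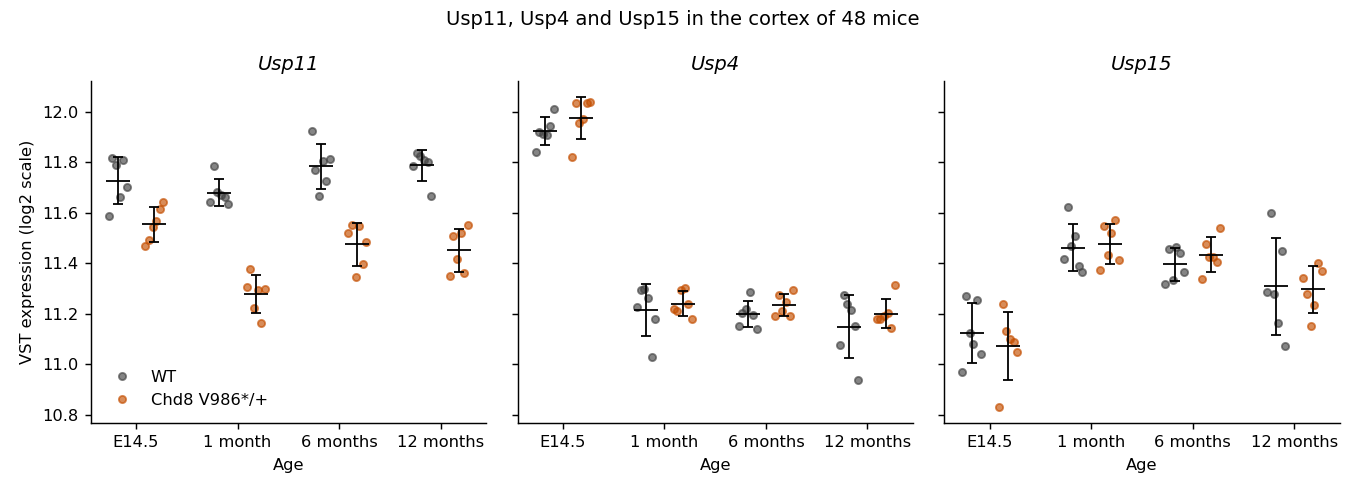
VST expression (log2 scale) of Usp11, Usp4 and Usp15 against age in 48 mice, with grey points for WT mice, orange points for Chd8 V986*/+ mice, and black bars for the mean ± SD of 6 mice. The orange Usp11 points lie below all grey points of the same age at 1, 6 and 12 months and overlap them at E14.5, whereas the genotypes overlap at every age for Usp4 and Usp15.

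At E14.5, the age that played no part in the choice of Usp11, its values ranged from 11.59 to 11.82 in WT (median 11.74) and from 11.47 to 11.64 in mutants (median 11.55). The groups overlapped, since 4 of 6 mutants lay below all WT embryos and all 6 lay below the WT median. The difference was −0.17 (SE 0.05, 95% confidence interval −0.29 to −0.06). It did not pass the threshold over all genes (limma adjp = 0.98, unadjusted p = 0.0058), at an age when 0.00593% of genes were called (1 of 16877, Chd8 itself). An exact two-sided permutation test of this one gene, 1 of 9 such tests of members, gave an unadjusted p = 0.0087. One limma fit of all 48 samples gave adjp = 0.084, in a fit that called 0.711% of genes at E14.5 (120 of 16877). The value of the difference was the same in these tests, and whether it passed differed between them. The midbrain, hindbrain and spinal cord marker mean was 5.20 in WT embryos and 4.04 in mutants, and with it as a covariate the difference was −0.12 (limma adjp = 1.00).

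The Usp11 difference was smaller at E14.5 than later. It moved by −0.23 from E14.5 to 1 month, by 0.09 from 1 to 6 months and by −0.03 from 6 to 12 months, values that enter no test because the postnatal differences chose the gene. Ordered by mean, the Usp11 groups ran from WT at 12 months (11.79) through WT at 6 months (11.78), E14.5 (11.73) and 1 month (11.68) to mutants at E14.5 (11.55), 6 months (11.47), 12 months (11.45) and 1 month (11.28). All 4 WT groups stood above all 4 mutant groups, although the values of each group overlapped those of the next group in the order.

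Usp4, which is known to deubiquitinate the type I TGF-beta receptor, did not differ detectably between the genotypes. At E14.5 its values ranged from 11.84 to 12.01 in WT (median 11.92) and from 11.82 to 12.04 in mutants (median 12.00). At 1 month the ranges were 11.03 to 11.30 (median 11.25) in WT and 11.18 to 11.30 (median 11.23) in mutants. The genotypes overlapped widely at both ages. At 6 months the ranges were 11.14 to 11.29 (median 11.20) and 11.19 to 11.30 (median 11.23), and at 12 months 10.94 to 11.27 (median 11.19) and 11.14 to 11.31 (median 11.18). The differences from the youngest to the oldest age were 0.05, 0.03, 0.04 and 0.05 (limma adjp = 0.98, 0.91, 0.87 and 0.75). Their 95% confidence intervals ran from −0.05 to 0.16, −0.07 to 0.12, −0.04 to 0.11 and −0.07 to 0.18. None reached as low as the Usp11 differences of the same age. The postnatal Usp11 values were chosen for being low, so at those ages this is a description.

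Usp15, a deubiquitinase known for acting on receptor-activated SMADs and on MDM2, did not differ detectably either. Its values ranged from 10.97 to 11.27 in WT (median 11.10) and 10.83 to 11.24 in mutants (median 11.09) at E14.5, and from 11.37 to 11.62 (median 11.44) and 11.37 to 11.57 (median 11.48) at 1 month. At 6 months they ranged from 11.32 to 11.46 (median 11.40) and 11.34 to 11.54 (median 11.42), and at 12 months from 11.07 to 11.60 (median 11.28) and 11.15 to 11.40 (median 11.31). The WT mice at 12 months had the widest spread of any group of the members, with an SD of 0.19. The differences were −0.05, 0.01, 0.04 and −0.01 (limma adjp = 0.98, 0.96, 0.88 and 0.97), with 95% confidence intervals of −0.20 to 0.10, −0.08 to 0.11, −0.05 to 0.12 and −0.18 to 0.15. The E14.5 interval of Usp15 includes the E14.5 value of Usp11, and the postnatal ones do not reach the Usp11 values. Those postnatal Usp11 values were chosen for being low, so the latter is a description.

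**Figure D2:**
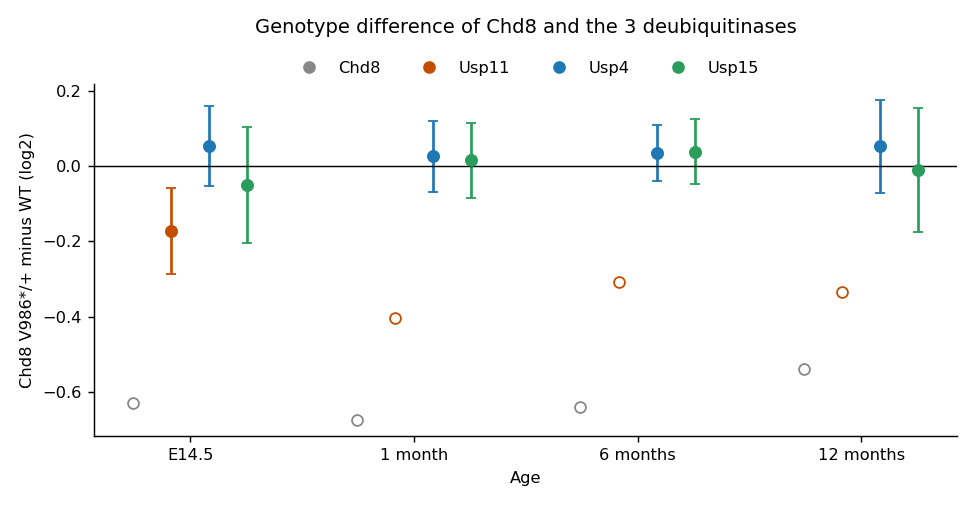
Difference in mean VST expression (Chd8 V986*/+ minus WT, log2) against age for Chd8, Usp11, Usp4 and Usp15, from 6 mice a genotype. Filled points with bars give limma 95% confidence intervals, and open points without bars mark Chd8, whose values check the labels, and the postnatal Usp11 values, which are a description. Usp4 and Usp15 intervals span 0 at every age, while Usp11 sits at −0.17, −0.40, −0.31 and −0.34.

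No change of the genotype effect between neighbouring ages was called for Usp4 or Usp15. For Usp4, the effect moved by −0.03 from E14.5 to 1 month, 0.01 from 1 to 6 months and 0.02 from 6 to 12 months (limma adjp = 1.00, 1.00 and 0.96). For Usp15 it moved by 0.06, 0.02 and −0.05 (limma adjp = 1.00, 1.00 and 0.91). Over all 17311 genes, 0% were called by limma for the first 2 of these tests, with 796 and 581 genes at an unadjusted p below 0.05, and 0.0578% for the last (10 genes).

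Within one mouse, the value of Usp11 minus that of Usp4 does not change with a shift common to all genes of a sample. At E14.5 this quantity was −0.31 to −0.11 in WT embryos and −0.54 to −0.35 in mutants, and the genotypes did not overlap. The value of Usp11 minus that of Usp15 was 0.54 to 0.66 in WT and 0.25 to 0.64 in mutants, with overlap. These E14.5 values were not tested, and how many other pairs of genes separate the genotypes was not counted. Usp11 alone overlapped between the genotypes at this age.

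In WT cortex, the paralogs took different courses between E14.5 and 1 month. Usp4 fell by 0.71 on the log2 scale to 61.3% of its E14.5 level (SE 0.05, limma adjp = 2.0e-12), and no postnatal mouse of either genotype overlapped any embryo. Usp15 rose by 0.34 to 126% (SE 0.07, limma adjp = 9.0e-05). The change of Usp11 was −0.05 (SE 0.05), and −0.18 after quantile normalization, which moved the median of all genes from 0.03 to −0.09. At this step 85.5% of all genes were called (14831 of 17341), so a call by itself does not set a gene apart. The postnatal WT values of Usp11 also entered the contrast that chose it, so all its age changes are given without a test.

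After 1 month, no age change in WT mice was called for Usp4 or Usp15. From 1 to 6 months, the change was 0.10 (SE 0.05) for Usp11, −0.02 for Usp4 (limma adjp = 0.90) and −0.07 for Usp15 (limma adjp = 0.63), with 14.8% of all genes called. From 6 to 12 months, it was 0.00 (SE 0.05) for Usp11, −0.05 for Usp4 (limma adjp = 0.81) and −0.09 for Usp15 (limma adjp = 0.75), with 0.0115% of all genes called (2 of 17341). Ordered by mean, both Usp4 groups of E14.5 stood apart above all postnatal groups. For Usp15 each group overlapped the next in the order, from mutants at 1 month (11.48) down to mutants at E14.5 (11.07).

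The relation of the paralogs to each other in the same WT mouse also changed between E14.5 and 1 month. The difference Usp11 minus Usp4 rose by 0.66, from −0.20 ± 0.09 to 0.46 ± 0.09 (SD, n = 6). Usp11 minus Usp15 fell by 0.39, from 0.60 ± 0.05 to 0.22 ± 0.05. Both are given without a test, because the 1-month WT values of Usp11 entered its choice. Usp4 minus Usp15 fell by 1.05, from 0.80 ± 0.12 to −0.25 ± 0.08. An exact two-sided permutation test gave p = 0.0022, the smallest that 6 against 6 mice allow. After adjustment over 9 differences, those with Usp11 included, this exact p was 0.0049. After quantile normalization these changes were 0.68, −0.45 and −1.13. Usp4 minus Usp15 changed by 0.05 from 1 to 6 months and by 0.04 from 6 to 12 months, and neither passed (adjusted exact p = 0.35 and 0.57). Between the same postnatal ages, Usp11 minus Usp4 moved by 0.12 and 0.05, and Usp11 minus Usp15 by 0.17 and 0.09, given without a test.

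Across the 48 mice, with the mean of each group removed, Usp11 had a Pearson correlation of 0.51 with Chd8, 0.38 with Usp4 and 0.31 with Usp15. Usp4 and Usp15 had a correlation of 0.56 with each other. These values describe shared variation within groups, and the points share a library and its normalization.

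The genes whose pattern was most like that of Usp11 were ranked by the correlation over 48 mice after removal of the mean of each age, which keeps the genotype difference that Usp11 was chosen for. Chd8 came first of 17310 genes with 0.90, followed by Zbtb45 (0.75), Zfp866 (0.72), Patz1 (0.69) and Ccdc91 (0.69). With the mean of each group removed, so that only variation between mice of one group was left, these correlations were 0.51, 0.26, 0.46, 0.45 and 0.10. Usp15 ranked 5524 with 0.11 and Usp4 ranked 12144 with −0.09.

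Zbtb45, a zinc finger gene with a BTB domain, had differences of −0.06, −0.25, −0.20 and −0.17 from E14.5 to 12 months, beside those of Usp11 of −0.17, −0.40, −0.31 and −0.34. Zfp866, a zinc finger gene, had −0.07, −0.23, −0.12 and −0.11. Patz1, a BTB and zinc finger transcription factor, had −0.05, −0.23, −0.19 and −0.10, and Ccdc91, a gene of vesicle traffic from the Golgi, had −0.13, −0.14, −0.15 and −0.13. The differences of all 4 genes were negative at every age and smaller in size than those of Usp11 at that age. A ranking that keeps the genotype difference of Usp11 favours genes with this sign, so the sign is no separate result.

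**Figure D3:**
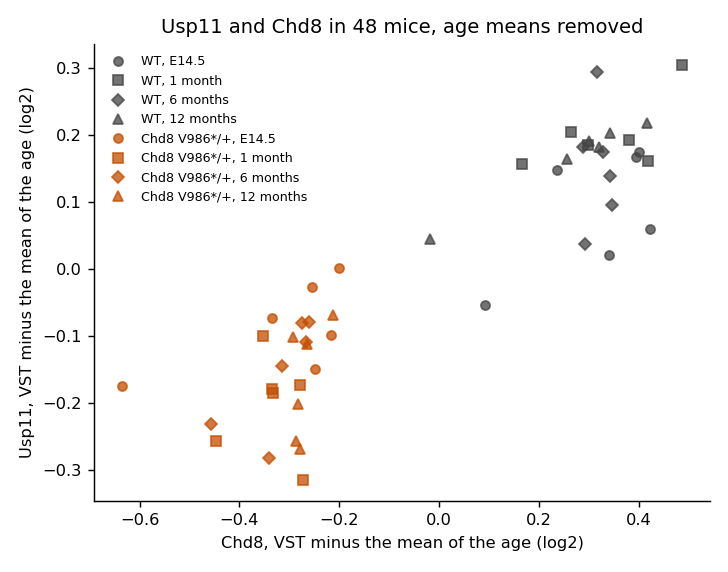
Usp11 against Chd8 in 48 mice, each as VST expression (log2) minus the mean of its age, in grey for WT and orange for Chd8 V986*/+, with one symbol per age. The genotypes form separate groups of points along Chd8, with 1 WT mouse of 12 months near 0, and the pooled correlation of 0.90 holds the genotype difference while that within groups was 0.51.

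The 4 other genes with a DUSP domain are Usp20 and Usp33, which are known to deubiquitinate adrenergic receptors, Usp32 and Usp48. Among Usp4, Usp15 and these 4, 0 of 6 were called between genotypes by limma at any age, with 0, 0, 0 and 1 at an unadjusted p below 0.05 from E14.5 to 12 months. Over all genes tested, 4.56%, 8.80%, 7.59% and 11.6% had an unadjusted p below 0.05 at these ages, the background for this count and for those of the lists that follow. Their differences ran from −0.05 to 0.05, −0.02 to 0.06, −0.07 to 0.04 and −0.02 to 0.15 at these ages. The lowest unadjusted p values belonged to Usp48 (0.15 at 12 months, limma adjp = 0.39), Usp20 (0.08 at 12 months, limma adjp = 0.55) and Usp33 (0.06 at 1 month, limma adjp = 0.70). In WT mice between E14.5 and 1 month, Usp4, Usp15 and the 4 others were called, beside 85.5% of all genes. Usp15, Usp20 (0.92), Usp32 (0.93) and Usp33 (0.52) were higher and Usp4 and Usp48 (−0.22) lower at 1 month.

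Of 49 further USP family genes in the table, 41 were tested between genotypes and 0 were called by limma at any age. From E14.5 to 12 months, 1, 2, 2 and 3 had an unadjusted p below 0.05, beside 4.56%, 8.8%, 7.59% and 11.6% of all genes. Counts this small do not set the family apart from all genes. Their median difference from the youngest to the oldest age was 0.01, −0.01, 0.00 and 0.03, beside 0.00 for all genes tested at each age. Usp37, a deubiquitinase of the cell cycle, had −0.18 at 12 months (limma adjp = 0.27) with 4 of 6 mutants below all WT mice. Usp49 had 0.24 at 12 months (limma adjp = 0.28) with 5 of 6 mutants above all WT mice, and Usp53 had 0.21 at 1 month (limma adjp = 0.40) with 4 of 6 above. Between E14.5 and 1 month in WT mice, 40 of 42 of these genes were called, 18 higher and 22 lower at 1 month.

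**Figure D4:**
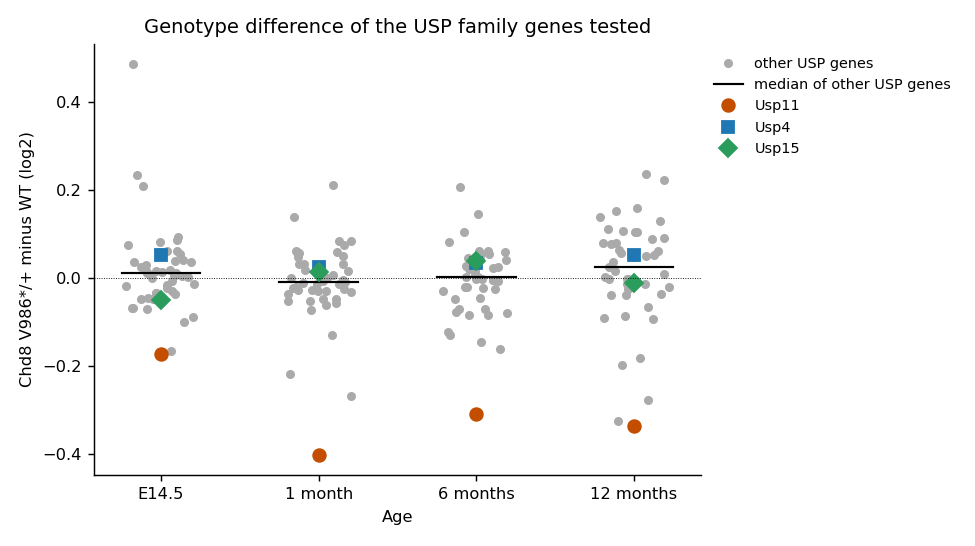
Difference in mean VST expression (Chd8 V986*/+ minus WT, log2) against age for every USP family gene tested, as grey points with a black bar at their median, with Usp11, Usp4 and Usp15 in colour. Usp11 lies below the family median at every age, which at the postnatal ages follows from its choice. The lowest grey points are −0.16, −0.27, −0.16 and −0.33 from E14.5 to 12 months, beside −0.17, −0.40, −0.31 and −0.34 for Usp11. Usp4 and Usp15 lie within the grey points, and the highest grey point is 0.49 at E14.5.

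For the TGF-beta pathway, 23 genes were followed, among them the ligands Tgfb1 to Tgfb3, their receptors, the Smad genes, the ligases Smurf1 and Smurf2, the inhibitors Ski and Skil, and target genes. By limma, 0 of 23 were called between genotypes at any age, with 1, 3, 1 and 1 at an unadjusted p below 0.05, and their median difference was −0.01, 0.00, 0.02 and 0.00. Smad7, the inhibitory SMAD that recruits SMURF ligases to the receptor, had −0.21 at E14.5 (limma adjp = 0.98) with 4 of 6 mutants below all WT embryos. Among target genes, Ctgf had 0.17 at 1 month (limma adjp = 0.50) and Tgfbi had 0.28 at 12 months (limma adjp = 0.40).

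In WT mice, 20 of the 23 pathway genes were called between E14.5 and 1 month, 8 higher and 12 lower at 1 month. Ctgf, which encodes a matrix protein, rose most, by 2.73 (limma adjp = 1.4e-19). Tgif1, a corepressor of SMAD-driven transcription, fell by 2.78, the most in the list (limma adjp = 1.9e-16).

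Reported substrates and partners of the enzymes were followed at the level of their own transcripts, which says nothing about their proteins. By limma, 0 of 14 were called between genotypes at any age, with 1, 2, 1 and 1 at an unadjusted p below 0.05. The lowest unadjusted p value was that of Trp53, which encodes p53. At 1 month its VST expression was 8.60 ± 0.06 (SD, n = 6) in WT and 8.38 ± 0.06 in mutants, a difference of −0.22 (limma adjp = 0.19). All 6 mutants lay below all 6 WT mice, and the share of all genes with such a separation was not counted. At this age 8.80% of all genes had an unadjusted p below 0.05. Brca2, a DNA repair gene, had −0.19 at 1 month (limma adjp = 0.52) with 4 of 6 mutants below all WT mice, and its partner Palb2 had 0.28 at E14.5 (limma adjp = 0.98) with 2 of 6 above.

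Between E14.5 and 1 month in WT mice, 14 of the 14 partners were called, 3 higher and 11 lower at 1 month. Trp53 fell by 2.20, the most in the list (limma adjp = 6.9e-21), and Cdkn1a, which encodes p21, rose most, by 0.88 (limma adjp = 0.0034).

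The neighbours of each member along its chromosome were read to see whether the Usp11 difference extended beyond the gene. Usp11 is followed after 94 kb (between gene starts) by Araf, a RAF kinase, and then by Syn1, which encodes the synaptic vesicle protein synapsin I, and is preceded by Cdk16 and, further out, by Uba1, the ubiquitin-activating enzyme. Differences of Cdk16, 16 kb upstream, were 0.00, 0.03, 0.00 and 0.11 from E14.5 to 12 months. Those of Uba1 were 0.02, −0.03, −0.04 and 0.00. Neither gene was called at any age (lowest limma adjp 0.55 for Cdk16 and 0.85 for Uba1). Araf had −0.11, 0.06, −0.02 and −0.03, and Syn1 had −0.15, 0.00, −0.02 and 0.06. At E14.5, the age not used for the choice, Usp11 had −0.17, and Araf and Syn1 lay closer to it than Cdk16 and Uba1 did. The postnatal contrast of Usp11 with its neighbours follows from its choice.

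The closest genes to Usp4 were Gpx1 (−0.04, 0.01, −0.09 and −0.14) and Rhoa (0.04, 0.05, 0.02 and −0.11) on one side and 1700102P08Rik (0.09, 0.13, 0.21 and −0.62) and Ccdc36 (0.07, 0.00, −0.33 and 0.02) on the other. The last pair was weakly expressed, with WT means of 4.35 to 5.12 and 4.36 to 5.35. The 2 nearest genes of Usp15 were Mon2 (0.01, −0.01, 0.04 and 0.01) and Mirlet7i on one side, the latter too low to be tested. On the other side they were Fam19a2 (−0.23, −0.19, 0.06 and −0.08) and Slc16a7 (0.15, −0.05, −0.22 and −0.05). Slc16a7 starts 2132 kb from Usp15, further away than Ppm1h, the third gene on the side of Mon2. Of the 30 neighbours, 5 on each side of each member, 28 were tested, and 0 were called by limma at any age, with 0, 2, 2 and 4 at an unadjusted p below 0.05, beside 11.6% of all genes at 12 months. In WT mice between E14.5 and 1 month, 27 of 28 were called, 14 higher and 13 lower.

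**Figure D5:**
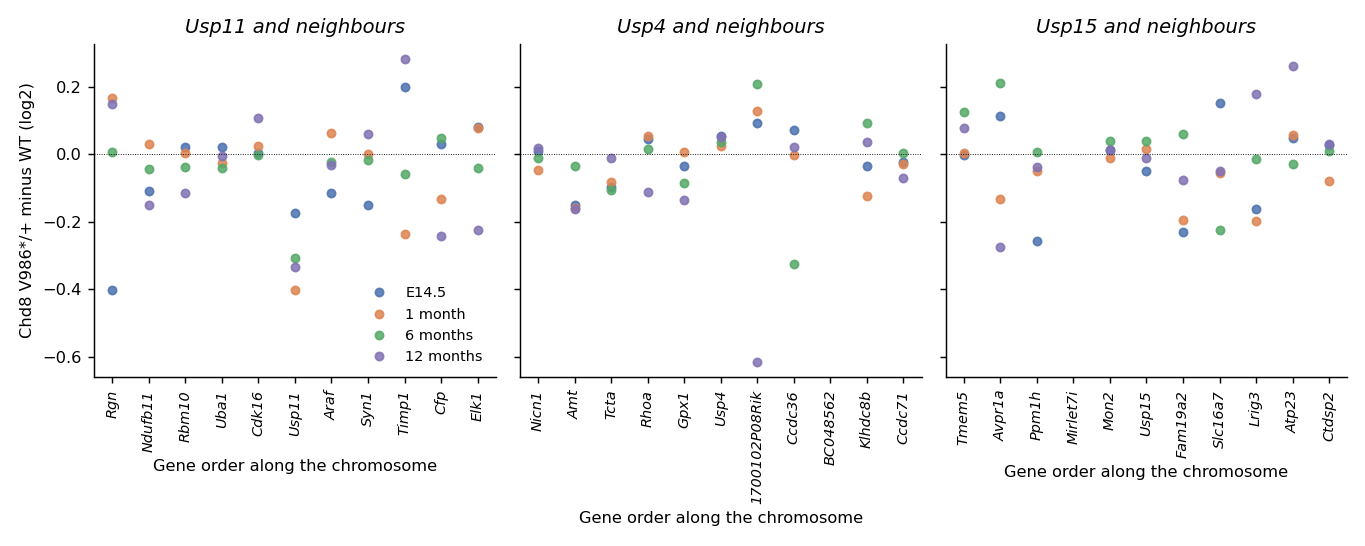
Difference in mean VST expression (Chd8 V986*/+ minus WT, log2) for Usp11, Usp4 and Usp15 and the 5 genes on each side of each in chromosome order, with one colour per age and no point where a gene was too low to be tested. Usp11 lies at −0.17 to −0.40, at the postnatal ages by its choice, while its immediate neighbours Cdk16 and Araf lie between −0.11 and 0.11. At E14.5, the age not used for the choice, Usp11 lies at −0.17, Araf at −0.11 and Cdk16 at 0.00.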

How the data were processed

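Cortical RNA-seq of 48 mice was analysed, 6 for each genotype and age, grouped by their labels. Per the labels and methods, the authors filtered reads (FASTX toolkit 0.0.14), trimmed adapters (cutadapt 1.12), aligned reads to mm9 (STAR 2.5.2b), quantified transcripts (Salmon 0.11.3) and processed counts with DESeq2 (version 1.22.2) in a model with a batch term, whose batch is not named. The labels name a TruSeq kit, whereas the methods name stranded KAPA libraries. The deposited values are VST expression on a log2 scale for 24444 genes, without counts, so count tests were not used and depth per gene is unknown. The floor of the table was taken as its most frequent value, 2.1433, which made up 15.72% of values. It is not the lowest value, since 6.06% of values lay below it. The means of replicates 1 to 3 and of replicates 4 to 6 were equal within 1e-09 for every gene, so a difference between these sets had been removed before deposit.

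limma 3.58.1 in R 4.3.3, with an intensity trend, was fitted at each age over genes with a mean at least 0.5 above the floor, with Benjamini-Hochberg adjustment and a threshold of 0.1. WT age changes were fitted in the 24 WT mice and changes of the genotype effect in all 48. The fits were tested on simulated data. Permutation tests were exact and two-sided. The 6 samples a group are separate samples per the labels. The members, the 5 gene lists and the named genes were chosen with earlier results of these data known, so the lists are no independent evidence. Named genes are the members, Chd8, the 5 genes most like Usp11, the 2 nearest genes on each side of each member, called list genes and, where none was called, the 3 list genes with the lowest unadjusted p, and the largest WT rise and fall of a list. The annotation matched 22216 of 24444 genes. Protein identity came from the longest coding sequences of gencode vM1, aligned with Biopython 1.88. Same-numbered samples of the genotypes did not correlate over 0.1 in every pair at any age, so the numbers were not used as pairs. At E14.5, however, 4 of 6 WT samples correlated best with the mutant of their own number, against 1, 1 and 0 at the later ages. A pairing at E14.5 is thus possible, and fits with a replicate block are given as alternatives. Alternatives were other filters, scalings, variance settings, thresholds and covariates, one fit of all samples, a replicate block, both together, and leaving out each mouse. Other software was matplotlib 3.10.9, scipy 1.17.1, pandas 2.3.3 and numpy 2.4.6 in Python 3.11.15. Proteins, behavior and reads of the mutant allele were not analysed here. A check of the tissue on cortex markers is not reported here.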

Additional observations from a re-analysis of the deposited data

Results flagged for a closer look

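Among the 24 groups of 6 mice (Usp11, Usp4 and Usp15 in each genotype and age), 3 held a mouse far from the other 5 by Dixon's criterion, which chance meets in about 1 in 20 groups. Usp11 in WT at 1 month was highest in replicate 2 (11.7839), Usp11 in WT at 12 months was lowest in replicate 6 (11.6645), and Usp4 in Chd8 V986*/+ mice at 12 months was highest in replicate 6 (11.3134). The WT mouse with 11.6645 still lay above all 6 Chd8 V986*/+ mice of its age.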

How the results depend on the processing

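Under all alternatives run, the Usp11 difference was −0.42 to −0.38 at 1 month, −0.33 to −0.28 at 6 months and −0.36 to −0.32 at 12 months. At E14.5, Usp11 (−0.1728) was called in one fit of all samples (limma adjp = 0.0838), in that fit with a replicate block (adjp = 0.0376) and by the exact test judged at 0.05 (p = 0.0087), and not with a replicate block at E14.5 alone (adjp = 0.332), where the value was −0.1728. Same-numbered samples had a mean correlation of 0.226 at E14.5 (4 of 6 pairs over 0.1), 0.019, 0.046 and −0.034 at the later ages. Leaving out 1 mouse gave −0.2009 to −0.1551. Usp15 at E14.5 turned to 0.0293 with the midbrain, hindbrain and spinal cord marker covariate. The WT change of Usp11 from E14.5 to 1 month, given without a test, was −0.1787 after quantile normalization. Small values changed sign when 1 mouse was left out, none with a call. Genotype differences ranged from −0.0123 to 0.0419 for Usp4 at 1 month, −0.004 to 0.0468 for Usp15 at 1 month and −0.0588 to 0.047 for Usp15 at 12 months. WT changes ranged from −0.053 to 0.0013 for Usp4 from 1 to 6 months and −0.0194 to 0.0319 for Usp11 from 6 to 12 months. Changes of the genotype effect from 1 to 6 months ranged from −0.0065 to 0.0477 for Usp4 and −0.0086 to 0.0423 for Usp15, and from 6 to 12 months from −0.026 to 0.041 and −0.0969 to 0.0088. In WT mice, Usp11 minus Usp4 from 1 to 6 months ranged from 0.0812 to 0.153, and Usp4 minus Usp15 from 6 to 12 months from −0.0037 to 0.0719.

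In one fit of all samples with a replicate block, 1 list gene each was called at E14.5 among the other USP genes (Usp1), the TGF-beta genes (Smad7) and the neighbours (Ppm1h), 1 partner at 1 month (Trp53), and 2 other USP genes (Usp37 and Usp49) at 12 months. At 12 months 1 neighbour, Elk1, was called in one fit of all samples, in that fit with the block and with the pan-neuronal covariate, and leaving out 1 mouse gave 0 to 2 called neighbours, the latter without WT replicate 3 (Elk1 and 1700102P08Rik). Usp1, Ppm1h and Elk1 were picked out after their values were seen. Calls over all genes ranged from 0 to 303 at E14.5, 3 to 45 at 1 month, 4 to 38 at 6 months and 2 to 1019 at 12 months, the highest of each in the fit of all samples with the block, against 1, 24, 16 and 8. WT age changes ranged from 13828 to 15263, 1683 to 3224 and 0 to 7 calls, and changes of the genotype effect from 0 to 118 (the highest without WT replicate 6 of E14.5), 0 to 1 and 3 to 139 (the highest without WT replicate 3 of 12 months). Depth per gene is unknown, so counting error could not be separated from differences between mice.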
